A study of Mus musculus with 8 samples.

Results

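The genes described here encode the nuclear subunits of respiratory complexes II to V in mouse white quadriceps, a pale thigh muscle of mainly fast-twitch fibres, with and without Acot2, a mitochondrial enzyme that frees fatty acids from their coenzyme A esters. The rule that picks them uses gene names and no measured value: Sdha to Sdhd for complex II, Uqcr genes and Cyc1 for complex III, Cycs for cytochrome c, Cox4 to Cox8 genes for complex IV and Atp5 genes for complex V. Of 54091 rows in the table, 56 matched these names, 7 of them pseudogenes that were left out, which gave 49 members: 4 of complex II, 9 of complex III, 1 of cytochrome c, 18 of complex IV and 17 of complex V. RNA sequencing covered 8 libraries from male mice, 11 to 14 weeks of age, after 7 days of high-fat feeding (60% fat). The 4 controls (replicates 1 to 4) were Loxp/Loxp. The 4 knockouts (replicates 5 to 8) carried CKM Cre, a recombinase driven by the promoter of muscle creatine kinase, and are labelled as an Acot2 knockout in muscle. Cre was given only for the knockouts, so an effect of Cre cannot be told apart from one of losing Acot2. Whether every library is a different animal is not stated, and the p-values below reflect the spread among these libraries, which may be technical.

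The mitochondrial inner membrane carries the respiratory chain. Complex II passes electrons from succinate to ubiquinone, complex III passes them on to cytochrome c, and complex IV hands them to oxygen. Complexes III and IV pump protons, and complex V, the ATP synthase, lets the protons back and makes ATP. Complex II is built from nuclear gene products alone, while complexes III, IV and V each also hold subunits encoded in mitochondrial DNA. Several complex IV subunits exist as pairs of isoforms, of which striated muscle is known to use Cox6a2, Cox7a1 and Cox8b.

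Libraries held 55283999 to 109101287 recovered reads, and a floor of 3 reads corresponded to a normalized count (reads divided by the library's size factor) of 2.04 to 3.87, which covers counting error only. Acot2 itself was at 2179, 3348, 4165 and 2166 normalized counts in the controls and at 325, 273, 256 and 354 in the knockouts, in the direction of the labels (log2 difference -3.24, SE 0.20, adjusted p = 4.72e-06 by limma). Skeletal muscle markers (7 genes, Acta1 to Pvalb) summed to 8916390 to 11153600 in controls and 9633140 to 11096600 in knockouts. Singly, 2 had higher and 5 lower estimates in the knockouts. Pvalb differed by 0.81 (SE 0.21, adjusted p = 0.0796 by limma) and Myh1 by -0.32 (SE 0.13, adjusted p = 0.146 by limma). Pvalb was at 708691 and 812776 in controls 3 and 4, and at 1278210 to 2148050 elsewhere. Control replicates 3 and 4 stood apart from the other 6 libraries, with scores of 55.2 and 56.1 on the first principal component against -38.6 to 0.56. Knockout replicate 8 had heart transcripts: 8 markers summed to 12630, against 1022 to 1886 in the others, and Myl7, a light chain of the atrium, was at 1124, against 0 to 4.14. Brown adipocyte markers (4 genes) summed to 2439 in knockout replicate 5 and 1795 in knockout replicate 8, against 156 to 482 elsewhere. These sums came mostly from Ucp1 (1458 and 885 in knockouts 5 and 8) and Cidea (928 and 858). Elovl3 was at 4.07 to 17.1 over all libraries. Cpt1b, which is not confined to brown adipocytes, went the other way, at 11.5 to 40.7 in the knockouts and 50.7 to 84.2 in the controls. Macrophage markers (7 genes) summed to 4413 to 6507 in controls and 6723 to 10991 in knockouts. These sums did not overlap, but with each gene weighted equally the groups did. The mean log2 deviation from each gene's own mean was -0.27 in knockout 6, against -0.17, -0.19, -0.64 and -0.22 in controls 1 to 4. Cd68 was at 77.4 in knockout 6 and at 151 to 205 in the controls. Markers of fibro-adipogenic progenitors (6 genes) summed to 117858 to 159265 in controls and 157587 to 187880 in knockouts. Slow fibre markers (7 genes) ranged from 17166 to 95175 in controls and 23805 to 80417 in knockouts, and white adipocyte markers (5 genes) from 5720 to 13175 and from 7475 to 16136. No marker was at or under the floor in every library. The part of these cell types in the differences below was not tested. In bulk tissue, fewer cells of a type and less RNA per cell cannot be told apart.

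Promoters of respiratory chain genes are known for sites of the factors NRF-1 and GABP, so the members' promoters were searched. Of the 49 members, 38 matched a RefSeq promoter table (GRCm38.p6), with 42 windows of 250 bases before to 50 bases after a start. Atp5a1, Cox4i1, Cox4i2, Cox6a2, Cox6c, Cox8c, Cyc1, Sdhc, Uqcrb, Uqcrc2 and Uqcrq had no entry. The NRF-1 motif (GCGCA, then N for any base, then GCGC) was on either strand in 10 of 42 windows (23.8%), against 4.6% of all 32851 windows in the table. The motif CCGGAAG of GABP was in 12 (28.6%), against 8.86%. AANATGGC of YY1 was in 7 (16.7%, against 6.05%), the MEF2 motif (CTA and TAG with NNNN between them) in 1 (2.38%, against 3.69%) and CANNTG, the E-box, in 30 (71.4%, against 72.3%). Among the tested members, the median log2 difference between knockout and control was 0.68 for the 12 with the GABP motif and 0.37 for the 25 without it, and for NRF-1 it was 0.50 (10 genes) and 0.43 (27 genes). For YY1 the order was the other way, 0.18 (6 genes with the motif) and 0.53 (31 without), and for the E-box it was 0.43 (27 genes) and 0.44 (10 genes). The single member with the MEF2 motif, Cox5b, differed by 0.33. These splits took no account of transcript length, with which the differences varied (below). Tested members with transcripts of at most 1000 bases had a median of 0.59 and longer ones 0.23. Whether the motifs have a part in the differences was not tested. The NRF-1 motif can match on both strands at the same place, and such a window was counted once.

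The 250 bases before the start are shown for 6 members described below, in lower case. Matches to the NRF-1 or GABP motif are in capitals on the strand of the gene (CTTCCGG is the GABP motif on the opposite strand). They are Cox6a1 (chr5:115348959-115349208, minus strand), Sdhd (chr9:50603850-50604099, minus), Uqcrh (chr4:116075071-116075320, minus), Atp5e (chr2:174464102-174464351, minus), Cox7a1 (chr7:30183921-30184170, plus) and Cox8b (chr7:140900447-140900696, minus). Cox6a1 and Sdhd, which both hold both motifs, lie beside Uqcrh and Atp5e with the GABP motif alone and the muscle isoforms Cox7a1 and Cox8b with neither. Lack of both is not particular to muscle isoforms, as either motif was found in only 18 of the 38 members with an entry. Of the counterparts outside striated muscle, Cox7a2 had neither motif in its window, while Cox8a had the GABP motif.
Cox6a1: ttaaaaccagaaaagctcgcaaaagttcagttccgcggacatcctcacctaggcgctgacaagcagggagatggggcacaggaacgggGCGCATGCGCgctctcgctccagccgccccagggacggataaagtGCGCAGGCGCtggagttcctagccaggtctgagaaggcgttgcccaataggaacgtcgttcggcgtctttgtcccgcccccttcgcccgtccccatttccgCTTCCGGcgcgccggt
Sdhd: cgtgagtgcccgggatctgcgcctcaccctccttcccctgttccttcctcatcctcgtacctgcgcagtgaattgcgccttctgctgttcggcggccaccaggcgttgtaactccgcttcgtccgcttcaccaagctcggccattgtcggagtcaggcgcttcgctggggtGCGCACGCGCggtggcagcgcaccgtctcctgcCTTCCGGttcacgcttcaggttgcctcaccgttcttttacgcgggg
Uqcrh: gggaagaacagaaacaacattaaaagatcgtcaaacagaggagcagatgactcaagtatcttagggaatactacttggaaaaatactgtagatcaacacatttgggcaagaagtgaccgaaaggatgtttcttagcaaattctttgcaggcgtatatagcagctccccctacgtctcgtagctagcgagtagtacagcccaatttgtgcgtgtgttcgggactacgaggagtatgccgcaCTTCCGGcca
Atp5e: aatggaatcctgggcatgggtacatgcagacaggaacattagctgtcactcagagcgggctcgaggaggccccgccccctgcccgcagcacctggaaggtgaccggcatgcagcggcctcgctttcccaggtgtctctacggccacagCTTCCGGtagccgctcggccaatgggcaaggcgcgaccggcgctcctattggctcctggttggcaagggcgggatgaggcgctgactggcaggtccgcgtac
Cox7a1: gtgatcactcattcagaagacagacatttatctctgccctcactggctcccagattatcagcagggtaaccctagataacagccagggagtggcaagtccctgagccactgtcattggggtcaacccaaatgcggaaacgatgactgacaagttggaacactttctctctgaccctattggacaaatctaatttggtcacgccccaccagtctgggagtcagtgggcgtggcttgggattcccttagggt
Cox8b: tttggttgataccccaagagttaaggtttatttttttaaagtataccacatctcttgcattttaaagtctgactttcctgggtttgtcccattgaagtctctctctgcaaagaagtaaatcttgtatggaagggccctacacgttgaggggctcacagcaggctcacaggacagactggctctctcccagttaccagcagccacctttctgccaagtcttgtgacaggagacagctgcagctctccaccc
A match is a run of letters and does not show that a factor binds there.

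Levels were compared between members per length of transcript. Per kilobase of the principal transcript, Atp5b, the catalytic beta subunit of ATP synthase, had the highest control level of all members, 124070 ± 9697 normalized counts (SD, n = 4). Cox6a2 led complex IV at 82636 ± 21715, Uqcrc1 led complex III at 45568 ± 7347, and Sdhb led complex II at 37972 ± 8507. Cox4i2, an isoform known from lung, was at 307 ± 116 per kilobase and Cox6b2, known from testis, at 56.4 ± 41.9. Cox7b2 and Cox8c, also known from testis, had 0 reads in every library, so that 3 reads in each is the most these data allow. Atp5s and Atp5sl, at 914 ± 37.2 and 1291 ± 194 per kilobase, match the naming rule but are not core subunits: Atp5s is also called factor B, and the product of Atp5sl is known from the assembly of complex I. The level of Atp5g1 depends on a transcript model of 4715 bases, the longest among the members.

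**Figure D1:**
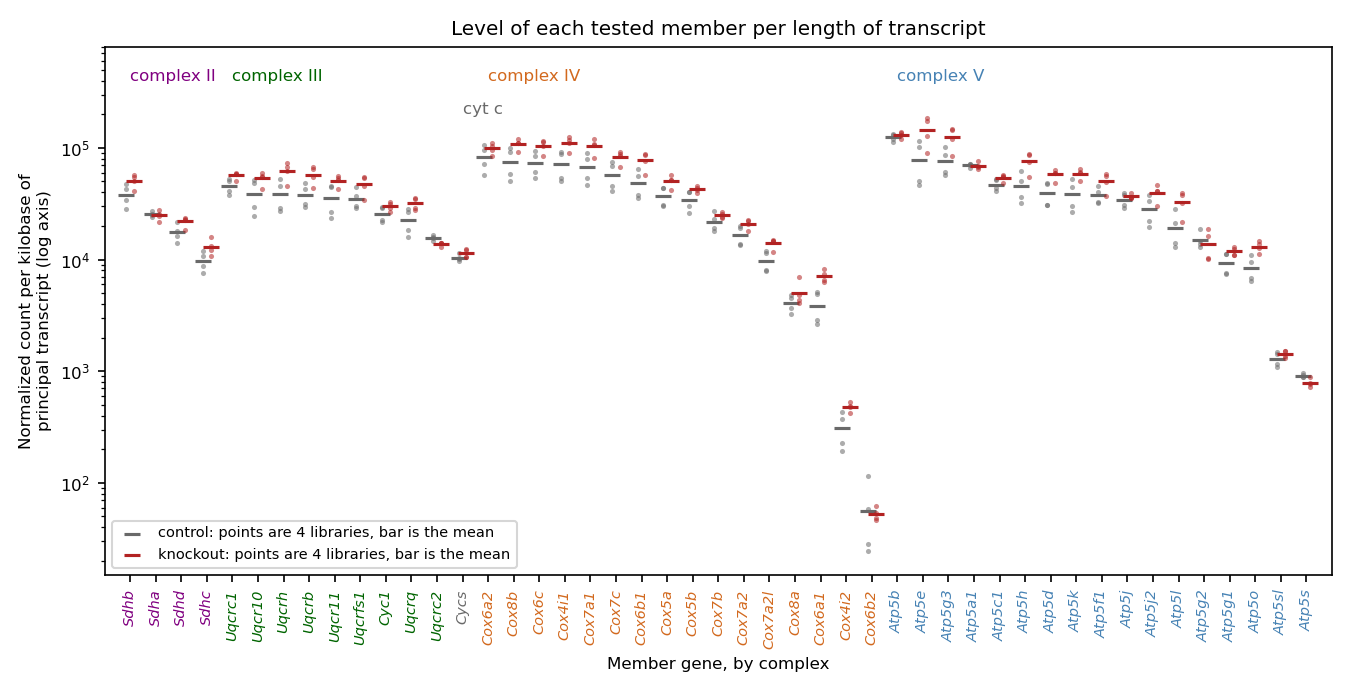
Normalized counts per kilobase of principal transcript (log axis) for the 47 tested members by complex, with 4 control (grey) and 4 knockout (red) libraries as points and group means as bars. The spread between members, from 56.4 for Cox6b2 to 124070 for Atp5b in controls, is wider than any distance between the groups.

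Estimates for the members were mostly higher in the knockouts, but none passed the test. With Cox7b2 and Cox8c left out for their 0 reads, 47 members had a mean normalized count of at least 10 and were tested among 15657 genes. No member had an adjusted p under 0.05 (limma over all genes), where 0.00639% of all genes did (1 gene, Acot2). The lowest adjusted p was 0.0796, shared by 8 members, and 20 members were under 0.1. The estimate was higher in 42 members and lower in 5, with a median log2 difference of 0.43 and a range of -0.22 to 0.94, beside a median of 0.0026 over all genes tested. At an unadjusted p under 0.05, 32 members (68.1%) were higher, where 13.6% of all genes were, and 0 were lower, where 13.3% were. The values of the 2 groups did not overlap for 2 members that were higher (4.26%), Cox6a1 and Atp5o, where 6.06% of all genes were so, and for 1 that was lower, Uqcrc2, where 7.06% were. Without control replicate 1 or control replicate 2, 18 and 26 members passed the threshold, where 11% and 13.1% of all genes did. With sample quality weights 17 passed, where 7.67% did.

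For most members, the same few libraries lay at the ends of the range. Control replicate 4 had the lowest value of 39 of the 47 members and control replicate 3 that of 3, and both lay below all 6 other libraries in 42 members, as in 21.6% of all genes tested. Knockout replicate 8 had the highest value of 27 members (16.2% of all genes), knockout replicate 7 of 8 (10.3%) and knockout replicate 6 of 5 (14.0%). Knockout replicate 5 was at or below the higher of control replicates 1 and 2 in 39 members, which was not counted over all genes. Averaged over the 47 tested genes, the deviation from the gene's own mean was 0.01, 0.13, -0.43 and -0.55 (log2) in controls 1 to 4 and 0.01, 0.25, 0.25 and 0.32 in knockouts 5 to 8. Without control replicates 3 and 4, the median difference of the members was 0.17 and 7 members were higher at an unadjusted p under 0.05 (4.36% of all genes). Without control replicate 4 alone, 20 members were, with a median of 0.34 (9.08% of all genes). Without knockout replicates 6 and 8, the median was 0.38, with 3 such members (5.67% of all genes).

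**Figure D2:**
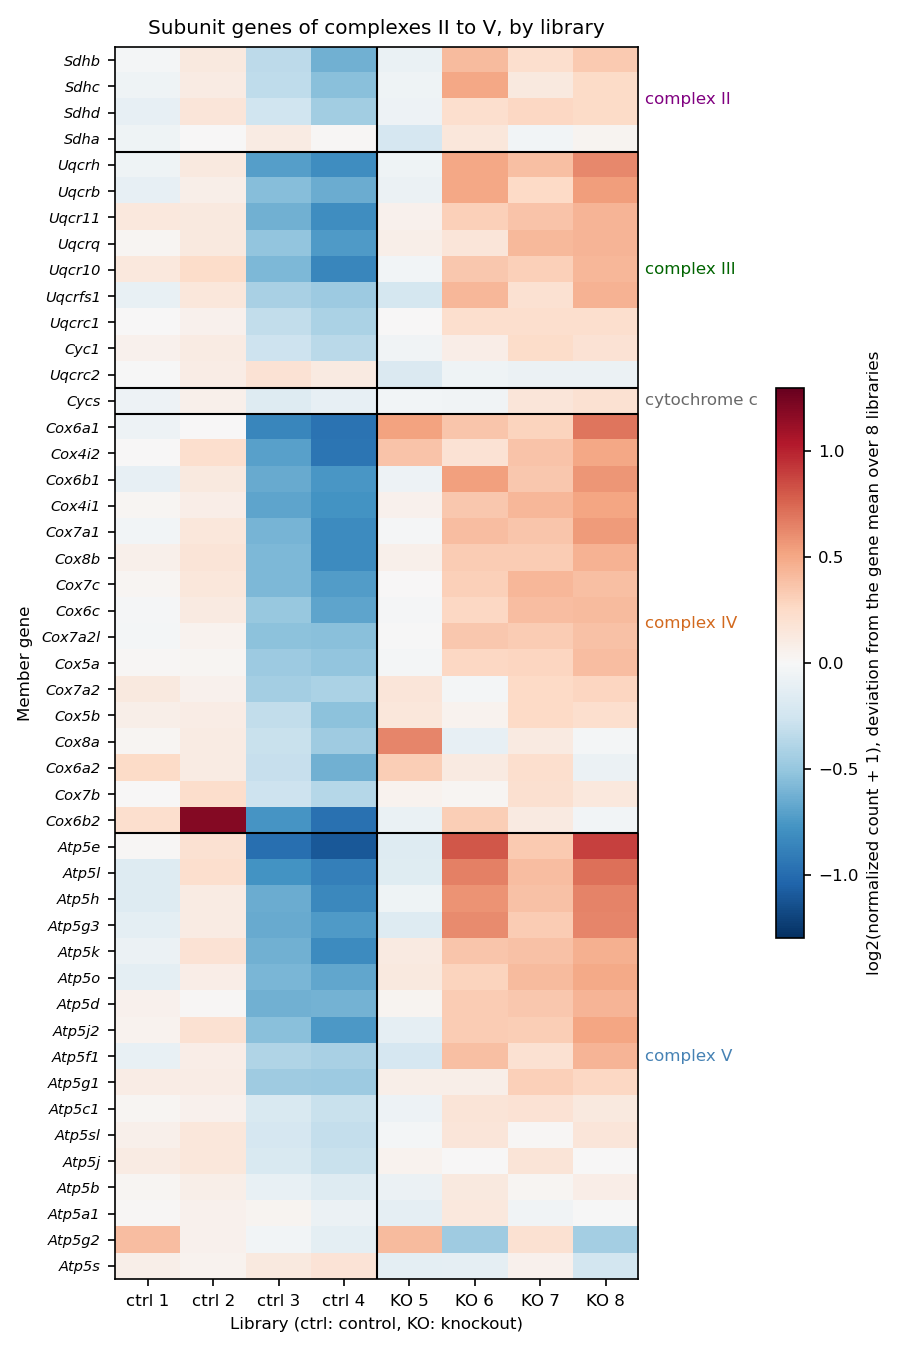
Deviation of log2(normalized count + 1) from the gene's mean over 8 libraries (colour) for the 47 tested members (rows, by complex) in each library (columns, controls left of the line). Control replicates 3 and 4 are lowest in 42 rows, knockout replicate 5 looks like controls 1 and 2 in most rows, and Uqcrc2, Atp5g2, Atp5s, Sdha and Atp5a1 are the 5 rows in which controls 3 and 4 are not both lowest.

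In complex II, which oxidises succinate, 3 of 4 estimates were higher and 1 was lower (median 0.37), where 50.3% of all genes were higher. Sdhb, the iron-sulfur subunit, was at 48576, 53821, 38986 and 32075 normalized counts in the controls and 46446, 65553, 57464 and 62401 in the knockouts. The groups overlapped, with knockout 5 below controls 1 and 2 (log2 difference 0.43, SE 0.16, adjusted p = 0.119). Sdhc, a membrane anchor, differed by 0.41 (SE 0.16, adjusted p = 0.119) and Sdhd, the other anchor, by 0.34 (SE 0.14, adjusted p = 0.142). Sdha, the flavoprotein that holds the catalytic site, was at 70268, 73308, 78815 and 73961 in the controls and 62857, 80823, 71303 and 74631 in the knockouts. Its values overlapped throughout, and control 3, low for most members, was the highest control (difference -0.04, SE 0.11, adjusted p = 0.846).

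In complex III, 8 of 9 estimates were higher (median 0.53), where 50.3% of all genes were, and 7 were so at an unadjusted p under 0.05, where 13.6% of all genes were. Uqcrh, the hinge subunit that sits beside cytochrome c1, was at 25014, 28525, 15911 and 14928 normalized counts in the controls and 25009, 36824, 34142 and 40157 in the knockouts. Knockout 5 lay within the controls and the other 3 knockouts above them (difference 0.72, SE 0.21, adjusted p = 0.081). Uqcrb, a small ubiquinone-binding subunit, was at 22688, 25790, 16737 and 15672 in the controls and 23226, 34768, 29356 and 35785 in the knockouts, again with knockout 5 alone among the controls (0.62, SE 0.18, adjusted p = 0.0796). About 43.2% of the 50-base windows of its transcript also occur in other annotated genes, a processed pseudogene among them, so its count is uncertain. Uqcrfs1, the Rieske iron-sulfur protein, differed by 0.42 (SE 0.17) and Cyc1, cytochrome c1, by 0.23 (SE 0.13, adjusted p = 0.266). Uqcrc2, a core protein, went the other way, at 27609, 29650, 31686 and 30162 in the controls and 24480, 26750, 26385 and 26396 in the knockouts. Every knockout was below every control, yet the difference of -0.19 (SE 0.10, adjusted p = 0.222) did not pass. The small subunits Uqcr10, Uqcr11 and Uqcrq differed by 0.53 (SE 0.22), 0.59 (SE 0.20) and 0.55 (SE 0.18), and in each of them knockout 5 was below control 2. Uqcrc1, the other core protein, differed by 0.33 (SE 0.13, adjusted p = 0.130). Cycs, the soluble carrier between complexes III and IV, differed by 0.14 (SE 0.11, adjusted p = 0.429), with overlapping groups.

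In complex IV, all 16 tested members had a higher estimate (median 0.53; 50.3% of all genes), 12 at an unadjusted p under 0.05 (13.6% of all genes). Cox6a1, the isoform of subunit VIa used outside striated muscle, was at 2778, 2920, 1624 and 1501 normalized counts in the controls and 4201, 3748, 3567 and 4712 in the knockouts. Every knockout, replicate 5 included, was above every control, with means of 2206 ± 747 and 4057 ± 512 (SD, n = 4 each). Of its 50-base windows, 12.3% occur in a processed pseudogene. The difference was 0.94 (SE 0.20, adjusted p = 0.0796). It was 0.50 without control replicates 3 and 4, 0.52 with the trend over transcript length and GC content removed and 0.34 with both. Atp5o was the only other member with every knockout above every control, as was so for 6.06% of all genes. Cox6a2, its muscle counterpart, was at 71581, 64920, 49152 and 39116 in the controls and 75452, 65553, 70112 and 57285 in the knockouts, with overlap (0.29, SE 0.17, adjusted p = 0.292). Its difference was -0.03 without control replicates 3 and 4 and 0.13 without control replicate 4 alone. Cox4i1, the main form of the regulatory subunit IV, was at 67780, 70571, 41263 and 38951 in the controls and 68956, 84894, 90003 and 95075 in the knockouts. Knockout 5 lay between controls 1 and 2 (0.68, SE 0.19, adjusted p = 0.0796). Cox6b1, a subunit facing the intermembrane space, differed by 0.70 (SE 0.20) and Cox5a, a subunit on the matrix side, by 0.47 (SE 0.15). Cox6c and Cox7c, small membrane subunits, differed by 0.53 (SE 0.17) and 0.57 (SE 0.18), and 53.0% of the windows of Cox7c occur in other genes. Cox5b, which binds zinc, and Cox7b had smaller estimates of 0.33 (SE 0.14, adjusted p = 0.154) and 0.21 (SE 0.13, adjusted p = 0.328). Cox7a2l, known from joining complexes III and IV into supercomplexes, differed by 0.53 (SE 0.15, adjusted p = 0.0796).

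Ratios between isoforms were taken within each library, where the library's size factor cancels. Of 10 planned pairs, 8 had both members detected and were tested with an exact two-sided permutation test over 70 splits, whose smallest possible p is 0.0286. The log2 ratio of Cox6a1 to Cox6a2 was -4.69, -4.47, -4.92 and -4.70 in the controls and -4.17, -4.13, -4.30 and -3.60 in the knockouts. All 4 knockouts lay above all 4 controls, with a difference of 0.65 (SE 0.18, exact permutation p = 0.0286, 0.229 after Benjamini-Hochberg adjustment over 8 ratios), so it did not pass the correction. Per length, Cox6a1 made up 4.42% ± 0.53 of both isoforms together in controls and 6.81% ± 1.44 in knockouts (SD, n = 4). The ratio's difference was 0.53 without control replicates 3 and 4 (exact permutation p = 0.133). It was 0.57 without control replicate 3 and 0.50 without knockout replicate 8, the library with heart transcripts, each with an exact permutation p of 0.0571.

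Cox7a1 was at 31399, 35626, 21189 and 18272 normalized counts in the controls and 31831, 42538, 41395 and 47046 in the knockouts, and Cox7a2, its counterpart outside striated muscle, differed by 0.34 (SE 0.14) against 0.65 (SE 0.20) for Cox7a1. Knockout 5 lay among the controls for Cox7a1, with the other 3 knockouts above them. The muscle form Cox7a1 made up 79.8% ± 2.3 of Cox7a1 and Cox7a2 per length in controls and 83.1% ± 2.6 in knockouts, with overlap (difference in log2 ratio 0.32, SE 0.16, exact permutation p = 0.143). Cox8b was at 33241, 35681, 21171 and 18024 in the controls and 33213, 39880, 39971 and 43634 in the knockouts (0.59, SE 0.19, adjusted p = 0.0924), while Cox8a, the general form, was at 2495, 2623, 2007 and 1779 in the controls and 3805, 2266, 2646 and 2395 in the knockouts (0.31, SE 0.17, adjusted p = 0.259). Knockout 5 was the highest library for Cox8a, whose difference was 0.15 without it, and lay below control 2 for Cox8b. Cox8a made up 5.30% ± 0.77 of Cox8a and Cox8b in controls and 4.55% ± 1.65 in knockouts. Knockout 5 had the highest share of all libraries, 6.97%, and knockout 8 the lowest, 3.47% (difference -0.28, SE 0.27, exact permutation p = 0.343). Cox4i1 was 99.6% of Cox4i1 and Cox4i2 in both groups (difference -0.04, SE 0.12, exact permutation p = 0.771). Cox6b1 relative to Cox6b2 differed by 0.54 (SE 0.32) and Cox7a2l relative to Cox7a2 by 0.20 (SE 0.11), each with an exact permutation p of 0.143. Cox6b2 was near the floor, at 14.3 to 67.3 normalized counts, so its ratio rests on few reads.

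The 3 genes Atp5g1, Atp5g2 and Atp5g3 encode the same mature c subunit, which forms the rotating ring of ATP synthase. Atp5g3 was at 62163, 73201, 43063 and 40664 normalized counts in the controls and 60179, 103709, 85236 and 105639 in the knockouts (0.70, SE 0.21, adjusted p = 0.081), with knockout 5 alone among the controls. Atp5g1 differed by 0.37 (SE 0.15, adjusted p = 0.142). Atp5g2 was at 13596, 10716, 10091 and 9471 in the controls and 13690, 7462, 11824 and 7574 in the knockouts (-0.15, SE 0.19, adjusted p = 0.630), where knockouts 6 and 8, the highest for Atp5g3, were the lowest. The difference of Atp5g2 was -0.04 without control replicate 1 and -0.31, -0.02, -0.24 and -0.03 without knockout replicates 5, 6, 7 and 8 in turn. The log2 ratio of Atp5g2 to Atp5g3 was -2.19, -2.77, -2.09 and -2.10 in the controls and -2.14, -3.80, -2.85 and -3.80 in the knockouts. Knockouts 6 and 8 had the lowest values and knockout 5 lay among the controls (difference -0.86, SE 0.44, exact permutation p = 0.0857). The ratio of Atp5g1 to Atp5g3 differed by -0.34 (SE 0.19, exact permutation p = 0.171). Without knockout replicate 5, 5 ratios had the smallest exact p that 3 against 4 libraries allow, also 0.0286: Cox6a1 to Cox6a2 (0.69), Atp5g2 to Atp5g3 (-1.19), Atp5g1 to Atp5g3 (-0.48), Cox8a to Cox8b (-0.52) and Cox7a2l to Cox7a2 (0.28). Of the 50-base windows of Atp5g2, 87.4% also occur in other annotated genes, so its count is uncertain.

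**Figure D3:**
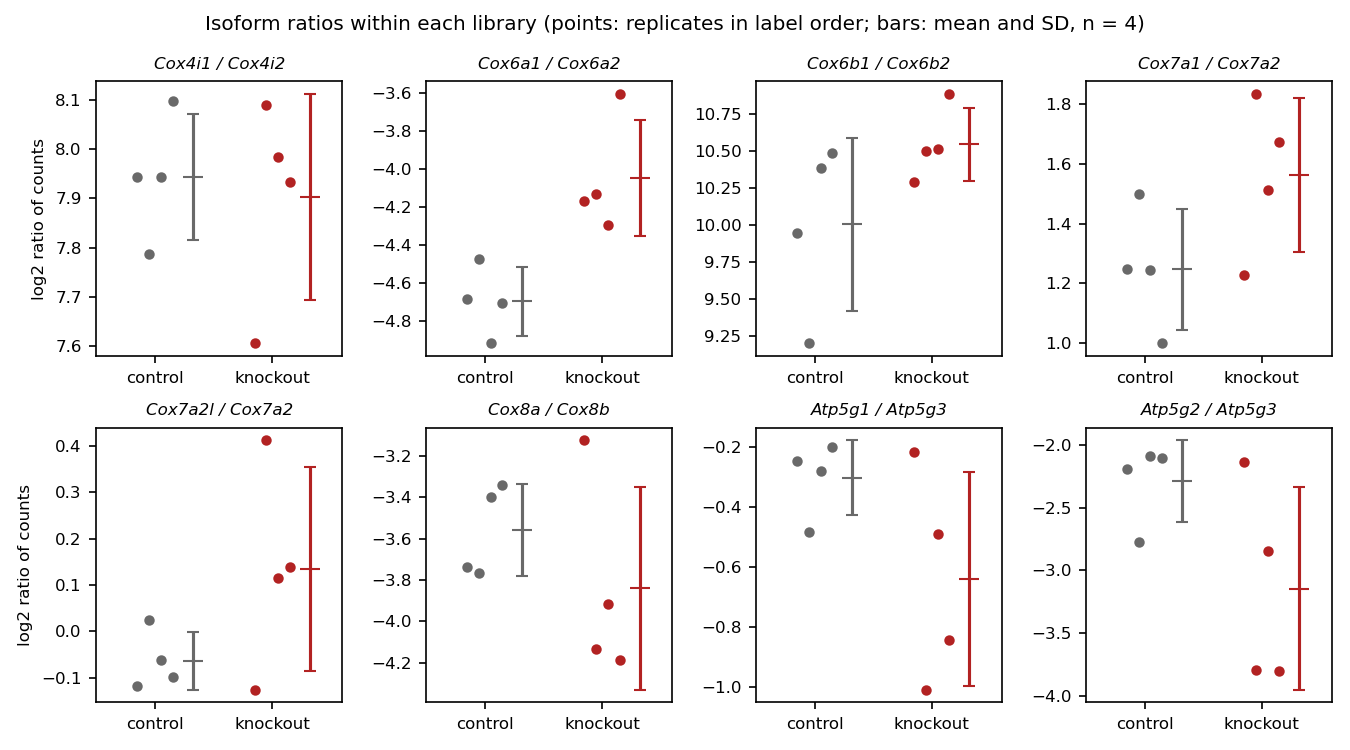
Log2 ratio of the normalized counts of 2 isoforms within each library for the 8 tested pairs (points, 4 control and 4 knockout libraries; bars, mean and SD; each panel has its own axis). Control and knockout points are apart only for Cox6a1 to Cox6a2; in the other 7 panels they overlap.

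In complex V, 14 of 17 estimates were higher and 3 were lower (median 0.41), where 50.3% of all genes were higher. Of them 10 were higher at an unadjusted p under 0.05, where 13.6% of all genes were. The alpha and beta subunits, which form the catalytic head, had estimates nearest to 0. Atp5b was at 248570, 257425, 228035 and 216843 normalized counts in the controls and 230818, 265968, 248088 and 259360 in the knockouts, and differed by 0.08 (SE 0.11, adjusted p = 0.669). Its groups overlapped in part, with controls 3 and 4 lowest and knockouts 6 and 8 highest. Atp5a1, the alpha subunit, differed by -0.01 (SE 0.11, adjusted p = 0.955) and Atp5c1, the gamma subunit of the central stalk, by 0.21 (SE 0.12, adjusted p = 0.272).

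The members of complex V with the smallest p were Atp5o and Atp5h. Atp5o, which joins the head to the peripheral stalk, was at 7886, 9191, 5706 and 5394 in the controls and 9429, 10540, 11513 and 12180 in the knockouts. Every knockout was above every control, although knockout 5 exceeded control 2 by little (0.66, SE 0.16, adjusted p = 0.0796). The transcript of Atp5o shares 29.0% of its exon bases with another annotated gene on the same strand. Of its 50-base windows, 35.5% occur in other annotated entries, mainly in one that is also named Atp5o, so its count is uncertain. Atp5h, subunit d of the peripheral stalk, was at 31695, 38422, 22746 and 19993 in the controls and 34225, 53534, 46276 and 55611 in the knockouts, where knockout 5 fell between controls 1 and 2 (0.77, SE 0.20, adjusted p = 0.0796). Of its 50-base windows, 50.5% occur in other genes. Atp5e, the epsilon subunit of the central stalk, was at 42831, 48335, 21415 and 19666 in the controls and 37684, 73854, 53564 and 77989 in the knockouts. Its knockout values differed more among themselves than those of most members, and knockout 5 was below controls 1 and 2 (0.93, SE 0.33, adjusted p = 0.119). Atp5l, subunit g of the membrane part, differed by 0.81 (SE 0.25, adjusted p = 0.0883), with 68.5% of its windows in other genes. Atp5k, subunit e, differed by 0.66 (SE 0.19, adjusted p = 0.0796), Atp5d, the delta subunit, by 0.58 (SE 0.17), Atp5j2, subunit f, by 0.52 (SE 0.20) and Atp5f1, subunit b of the peripheral stalk, by 0.41 (SE 0.16). Atp5j, coupling factor 6, and Atp5sl were nearer to 0, at 0.11 (SE 0.12) and 0.15 (SE 0.12). Atp5s had the most negative estimate, at 1427, 1404, 1480 and 1537 in the controls and 1237, 1250, 1404 and 1150 in the knockouts (-0.22, SE 0.11, adjusted p = 0.213). Knockout 7 alone reached the lowest control.

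The size of the difference varied with transcript length. Across the 47 members, which share the same 8 libraries, Spearman's rho between the length of the principal transcript and the log2 difference was -0.64, and across 15576 genes with a length it was -0.45. The 28 members of at most 1000 bases had a median difference of 0.59, and 1729 genes of that length a median of 0.35. The 19 longer members had a median of 0.23, and 13847 longer genes one of -0.03. The median length of the members was 809 bases, against 2772 for all genes. With the trend over length and GC content removed from each library, the members' median was 0.20 (all genes 0.015), 37 of 47 estimates were higher, and at an unadjusted p under 0.05 there were 18 higher members (11.6% of all genes) and 4 lower ones (10.9% of all genes). Without control replicates 3 and 4 as well, the median was 0.09, with 1 higher member (3.75% of all genes).

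**Figure D4:**
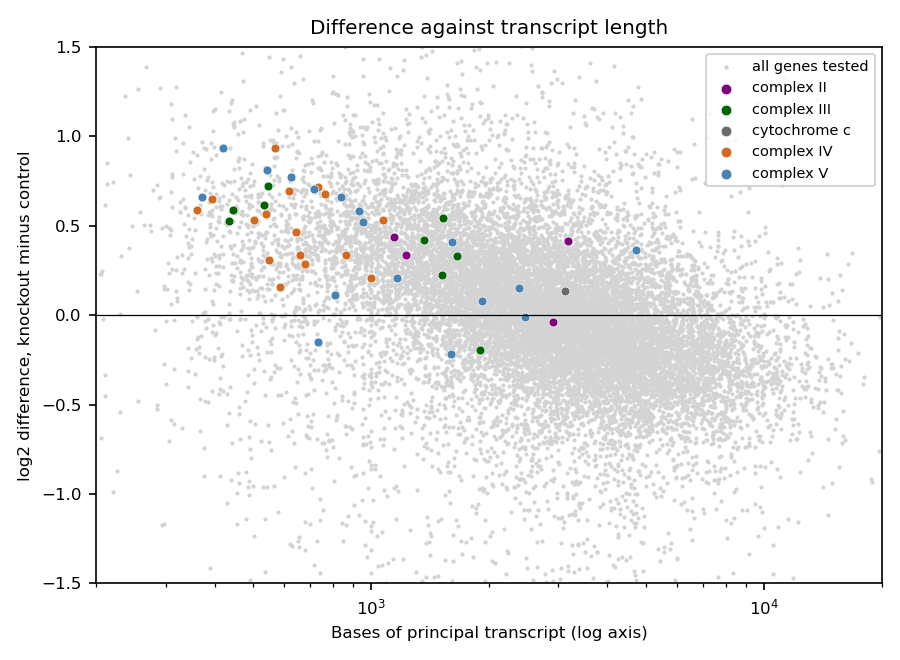
Log2 difference between knockout and control (vertical axis) against bases of the principal transcript (log axis) for the members, coloured by complex, over all genes tested (grey; values beyond 1.5 on either side are off the axis). Members of at most 1000 bases lie mostly above 0 (median 0.59), and the longer ones nearer to it (median 0.23).

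Subunits encoded in mitochondrial DNA had lower estimates, none past the test. All 6 were lower (median -0.99), 3 at an unadjusted p under 0.05, where 13.3% of all genes were. mt-Co1, the catalytic core of complex IV, was at 1857200, 1519110, 2827310 and 2576710 normalized counts in the controls and 1651790, 837946, 1408670 and 646100 in the knockouts. Controls 3 and 4 were highest and knockouts 6 and 8 lowest, with knockout 5 above control 2 (difference -1.01, SE 0.29, adjusted p = 0.081). mt-Cytb, the cytochrome b of complex III, was at 931501, 761877, 1156390 and 1100480 in the controls and 925324, 350121, 755985 and 253178 in the knockouts (-0.97, SE 0.38, adjusted p = 0.142). Knockout 5 again lay among the controls. mt-Atp8, a short subunit of complex V, was at 170, 127, 374 and 331 in the controls and 160, 20.6, 89.6 and 23.2 in the knockouts (-2.12, SE 0.64, adjusted p = 0.0868). The other subunits were mt-Atp6 at -1.16 (SE 0.54), mt-Co3 at -0.71 (SE 0.33) and mt-Co2 at -0.24 (SE 0.22). For these, 99.5%, 99.9% and 100% of 50-base windows also occur in other annotated genes. The share was 51.1% for mt-Co1 and 0% for mt-Cytb and mt-Atp8. Levels of mt-Atp6, mt-Co2, mt-Co3 and mt-Co1 are therefore uncertain. Without knockout replicates 6 and 8 the median of the 6 was -0.21. Without knockout replicate 8 alone, mt-Cytb was at -0.64, mt-Co3 at -0.46 and mt-Co2 at -0.05, and without knockout replicates 5, 6 and 7 in turn mt-Co2 was at -0.43, -0.10 and -0.38.

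The members together made up 2.53%, 2.83%, 2.12% and 1.87% of all normalized counts in the controls and 2.50%, 3.16%, 2.98% and 3.23% in the knockouts. The 6 mitochondrially encoded genes made up 3.81%, 3.27%, 5.71% and 5.02% in the controls and 3.60%, 1.69%, 3.03% and 1.28% in the knockouts. These counts were mostly of mt-Co1 and mt-Cytb, at 1857200 and 931501 of 2823290 in control 1. The order of the mitochondrially encoded share over libraries ran nearly opposite to that of the members. Nuclear members amounted to 0.37 to 0.87 counts per mitochondrially encoded count in controls and 0.69 to 2.52 in knockouts, where knockout 5, at 0.69, lay within the controls.

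**Figure D5:**
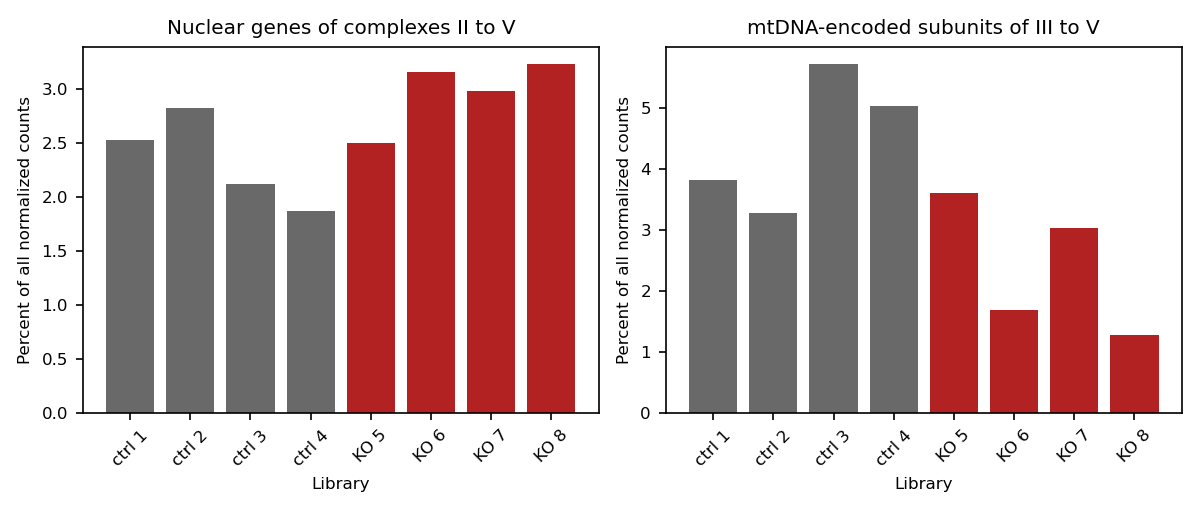
Percent of all normalized counts in each library (bars, controls grey, knockouts red) from the 49 nuclear members (left) and from 6 subunits encoded in mitochondrial DNA (right). Most counts on the right are from mt-Co1 and mt-Cytb. Control replicates 3 and 4 have the lowest nuclear shares, 2.12% and 1.87%, and the highest mitochondrial ones, 5.71% and 5.02%.

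Genes that help build these complexes were described in the same way. Of 38 listed assembly factors, 36 were tested, and Pet117 and Sco2 were at or near 0. Higher estimates were seen for 27 and lower ones for 9 (median 0.15). At an unadjusted p under 0.05, 12 were higher, where 13.6% of all genes were, and 2 lower, where 13.3% were. Of the 36, 0 passed the adjusted threshold, where 0.00639% of all genes did. Cmc1, a factor in the maturation of complex IV, was at 1183, 1306, 981 and 1075 normalized counts in the controls and 1450, 1682, 1521 and 1795 in the knockouts, without overlap (0.51, SE 0.12, adjusted p = 0.0796). Uqcc3, needed to assemble complex III, differed by 0.64 (SE 0.17, adjusted p = 0.0796), with knockout 5 among the controls. Its difference was 0.34 without control replicates 3 and 4, 0.35 with the length and GC trend removed and 0.23 with both. Cox15, which makes the heme a of complex IV, was at 2075, 2058, 2946 and 2889 in the controls and 1774, 1757, 1725 and 1784 in the knockouts. All knockouts were below all controls (-0.48, SE 0.13, adjusted p = 0.0796). Cox15 differed by -0.23 without control replicates 3 and 4, -0.29 with the length and GC trend removed and -0.19 with both. Of the 36 factors, 2 were higher without overlap between the groups (6.06% of all genes) and 3 lower (7.06% of all genes). The naming rule misses 2 subunits, Ndufa4 of complex IV and Usmg5 of complex V, which differed by 0.34 (SE 0.13) and 0.71 (SE 0.26).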

How the data were processed

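Reads were handled with DESeq2, HTSeq, STAR, FastQC and cutadapt on GRCm38, per the submitters' processing notes. Versions, roles, annotation and strand setting were not given in the sources used here. Values deposited by the authors are log2 of a normalized count plus 1, a form read from the numbers: undone, 100% of values from 1 to 1000 reads lay within 0.1 of a whole read. All 8 columns were used, and 27 names turned into dates were restored. limma 3.58.1 (R 4.3.3; eBayes trend and robust, Benjamini-Hochberg at 0.05) was run on log2(normalized count + 1) for all genes averaging 10 or more, without covariates, and checked on simulated data. Fold changes on this scale understate those of low genes. Isoform ratios used exact permutation tests in scipy 1.17.1. Transcript lengths and 50-base windows came from a GENCODE annotation of GRCm38, promoters from RefSeq. Replicates differed beyond sampling noise (chi-square per gene 35.4 to 264.8). Named genes were both isoforms of each detected pair, the 2 members of smallest p and the most negative one per complex, the 3 assembly factors of smallest p and all mitochondrially encoded partners. Others were added after their values were seen. Members and lists were chosen with earlier results of these data known. Alternatives covered pseudocounts of 0.5 and 8, filters, scalings, variance models, removal of the length and GC trend (loess span 0.5) and libraries left out. Leaving out knockout replicates 6 and 8 was chosen after seeing the data.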

Additional observations from a re-analysis of the deposited data

Results flagged for a closer look

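Of 110 groups of 4 libraries examined among the members and ratios, 5 had a library far from the other 3, and chance alone gives about 1 in 20. Knockout replicate 5 was that library in 4 of them, each time as the lowest knockout. Sdhd, an anchor of complex II, was at 22838 normalized counts there and at 27847 to 28929 in the other knockouts. Uqcrc1, a core protein of complex III, was at 84098 against 97134 to 97518, and Uqcrc2, its partner, at 24480 against 26385 to 26750. Cox7a2l was at 12448 against 15695 to 16229. The log2 ratio of Atp5g2 to Atp5g3 was -2.77 in control replicate 2 and -2.19 to -2.09 in the other controls.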

How the results depend on the processing

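No paired analysis was possible because the replicate numbers 1 to 4 and 5 to 8 are not shared between groups. There were 4 libraries in each group, and 2 controls stood apart. The number of members past the threshold ranged from 0 to 26 when single libraries were left out and was 17 with sample quality weights (whose estimation stopped short of its tolerance), and the number higher at an unadjusted p under 0.05 ranged from 20 to 35. The latter was 18 with the length and GC trend removed, 7 without control replicates 3 and 4, 1 with both and 3 without knockout replicates 6 and 8. The cause was not tested.

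Median differences with the trend removed were 0.16 (complex II), 0.16 (complex III), 0.26 (cytochrome c) and 0.23 (complex IV). Without control replicates 3 and 4 they were 0.16, 0.17, 0.20 and 0.13 for complexes II, III, IV and V and 0.17 for all members. With both they were 0.0834, 0.0487, 0.12, 0.11 and 0.0930, and -0.0031 for the assembly factors. Without knockout replicates 6 and 8 the median of the mitochondrially encoded subunits was -0.21.

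The ratio of Cox6a1 to Cox6a2 ranged from 0.50 to 0.73 with single libraries left out, and was 0.53 without control replicates 3 and 4, 0.49 with the trend removed as well and 0.46 without knockout replicates 6 and 8 (exact permutation p = 0.0667). Cox6b1 to Cox6b2 was 0.61 at a pseudocount of 8 (exact permutation p = 0.0286). Cox4i1 to Cox4i2 was 0.0377 without control replicates 3 and 4 and 0.0319 with the trend removed as well, and ranged from -0.10 to 0.0589 with single libraries left out. Cox8a to Cox8b was 0.0389 without knockout replicates 6 and 8, and Atp5g1 to Atp5g3 was 0.13 with the trend removed. Leaving out single libraries gave -0.52 to -0.17 for Cox8a to Cox8b, -0.48 to -0.21 for Atp5g1 to Atp5g3, -1.19 to -0.64 for Atp5g2 to Atp5g3 and 0.11 to 0.28 for Cox7a2l to Cox7a2.

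Among single genes, signs turned for Cox6a2 (-0.0316 with the trend removed, -0.0301 without control replicates 3 and 4, -0.14 with both), Cox6b2 (-0.22, -0.63 and -0.77 in that order) and Sdha (0.0121, 0.00673 and 0.0206). Cox8a was at -0.11 with the trend removed and -0.0687 with both, and Cox7a2 at -0.0279 with both. Without knockout replicates 6 and 8, Atp5g2 was at 0.23 and mt-Co2 at 0.25. With single libraries left out, Cox6b2 ranged from -0.14 to 0.58 and Sdha from -0.0928 to 0.0282.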
